A study of Mus musculus with 20 samples.

Results

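Liver RNA of 20 mice was examined for 10 genes that encode secreted carrier proteins of the acute-phase response. They were found by name among the 48440 genes of the count table, and all 10 were among the 16071 genes that passed a filter on low counts. Of these, 7 belong to the positive class, whose plasma proteins increase in inflammation (Lcn2, Orm1, Orm2, Orm3, Hp, Hpx and Cp), and 3 to the negative class, whose plasma proteins decrease (Alb, Ttr and Rbp4). The genes were chosen from these data, because Lcn2 was among the largest rises with corticosterone in mice given the isotype antibody. For that comparison no p-values are given and its calls are counted as a description, while the other comparisons were tested.

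All mice were 8-week-old wild-type C57BL/6 females, and all of them were injected with an antibody, so that no uninjected group was analysed here. They received corticosterone (CORT), the main glucocorticoid of the mouse and here a model of Cushing's syndrome, or vehicle in the drinking water for 5 weeks. Over the same time they were given a monoclonal antibody against acyl-CoA-binding protein (αACBP) or an IgG2a isotype control antibody. There were 5 livers in each group, in the order used throughout Isotype + Vehicle, Isotype + CORT, then αACBP + Vehicle and finally αACBP + CORT. The study asked whether neutralization of this circulating protein alters the response to CORT.

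The acute-phase response is a change in the proteins that hepatocytes release into plasma during infection, injury or inflammation. Interleukin-6 acts on it through STAT3, interleukin-1 through NF-κB, and C/EBP factors bind many of the promoters. Glucocorticoids act together with these cytokines on several positive members, the orosomucoids among them.

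The counts on genes amounted to 14934926 to 20299999 per liver, and the 10 genes took between 4.35% and 12.6% of them, Alb alone between 3.24% and 10.3%. All 8 hepatocyte markers examined were detected in every group. Fkbp5, a glucocorticoid-induced gene, was at 39.3 ± 9.87, 128 ± 40.0, 63.0 ± 24.2 and 76.8 ± 19.8 CPM (counts scaled to a common library size) in the 4 groups in the order above (SD, n = 5), Tsc22d3, another such gene, at 118 ± 34.3, 74.1 ± 17.3, 131 ± 90.7 and 95.4 ± 25.4 CPM, and Dbi, which encodes ACBP, at 891 ± 155, 781 ± 163, 585 ± 167 and 763 ± 124 CPM. All CPM given here were normalized by TMM, the trimmed mean of log ratios between libraries. Replicate 5 of αACBP + Vehicle stood apart, being the lowest liver of its group for 9 of the 10 genes and having the largest share of unaligned read pairs, 5.75%. Replicate 4 of Isotype + Vehicle came next in that share, 4.84%, and results that depend on either liver are given with and without it.

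Relative to the joined length of all their annotated exons, the 10 genes spanned a wide range in Isotype + Vehicle. This length ran from 775 bases for Orm2 to 11205 for Cp. It is not that of a single transcript, so that the order of the genes depends on the annotation. On the scale of CPM per kilobase of exon, Alb stood at 14610 and Ttr at 4992, followed by Hpx at 2207, Rbp4 at 2082, Hp at 1917 and Orm1 at 751. Cp and Orm2 lay close together at 78.9 and 77.9, Orm3 was at 10.2 and Lcn2 was the lowest at 7.02. In αACBP + CORT, Lcn2 was at 115 CPM per kilobase and Orm2 at 386, while Orm3 was the lowest at 28.6.

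Lcn2 (ENSMUSG00000026822.14, chromosome 2) encodes lipocalin-2, which withholds iron from bacteria by binding their siderophores. Its promoter in the RefSeq table, from 250 bases before to 50 bases after the transcription start (GRCm38.p6, chr2:32387690-32387989, minus strand), is shown because the choice of the genes started from it. The capitals mark TTGCTCAA, a match to the C/EBP-type motif TTGCNNAA at position -216, and ACAGAATGT, a match to the glucocorticoid-receptor-type motif ACANNNTGT at position -152, counted from the start site as 0.
Lcn2: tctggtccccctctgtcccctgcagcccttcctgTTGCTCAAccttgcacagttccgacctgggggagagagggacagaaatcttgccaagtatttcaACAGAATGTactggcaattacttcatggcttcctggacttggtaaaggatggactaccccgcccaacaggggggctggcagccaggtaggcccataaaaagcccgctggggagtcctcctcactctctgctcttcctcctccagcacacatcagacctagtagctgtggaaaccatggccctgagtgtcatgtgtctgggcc

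Both strands were searched, and 10.8% of the 32851 promoters in the table held the first motif and 6.85% the second. The STAT-type motif TTCNNNGAA (8.30% of promoters) and the κB-type motif GGGANNNTC (14.5%) were not found in this window. The marked stretches do not overlap, and a match of letters does not show that a factor binds.

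Lcn2 was at 22.8, 18.2, 16.3, 14.7 and 19.9 CPM in replicates 1 to 5 of Isotype + Vehicle. It was at 301, 350, 42.8, 547 and 303 CPM in Isotype + CORT. All 5 livers given CORT were above all 5 given vehicle, although replicate 3 lay much closer to the vehicle livers than to the others of its group. The means were 18.4 ± 3.15 and 309 ± 180 CPM (SD, n = 5 each), a log2 fold change (log2FC) of 4.07 (± 0.69 SE). Fkbp5 also had its lowest Isotype + CORT value in replicate 3, at 67.6 CPM against 117 to 177 CPM in the other livers of the group. Vnn1, from the list of other acute-phase genes described below, had its highest value there, at 177 CPM against 42.7 to 156 CPM. Whether this liver responded less to CORT was not tested.

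With αACBP and no CORT, Lcn2 was at 204, 24.8, 118, 292 and 33.1 CPM. Every one of these livers lay above the highest Isotype + Vehicle liver, but replicates 2 and 5 by little, and the other 3 many times higher. Lcn2 rose with the antibody alone by a log2FC of 2.87 (± 0.65 SE, adjusted p = 0.0228, edgeR's quasi-likelihood test), from a mean of 18.4 to 134 CPM. The Isotype + Vehicle livers of this comparison also served in the one from which Lcn2 was chosen. The call was lost without replicate 1, 2 or 5 of Isotype + Vehicle or replicate 1 of αACBP + Vehicle, and with 1 liver left out at a time the adjusted p lay between 0.00985 and 0.0669.

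With both treatments Lcn2 was at 290, 489, 274, 233 and 217 CPM, and replicate 2 stood above the other 4. These livers did not overlap with Isotype + Vehicle, whose livers also served in the choice of Lcn2 (log2FC 4.03 ± 0.69 SE, adjusted p = 0.0337 from edgeR). Leaving out any one of 10 livers removed this call, namely any of the 5 Isotype + Vehicle livers, replicate 1 of Isotype + CORT or replicate 1, 2, 3 or 4 of αACBP + CORT, with the adjusted p between 0.0124 and 0.144 over all livers left out in turn. The αACBP + CORT and Isotype + CORT groups overlapped widely, and the 95% interval of their log2 difference ran from -1.32 to 1.24. Between αACBP + CORT and αACBP + Vehicle, which share no liver with the comparison behind the choice, the log2FC with CORT was 1.16 (± 0.61 SE, adjusted p = 0.457 from edgeR), and the groups overlapped. The mean levels were thus ordered Isotype + CORT, αACBP + CORT, αACBP + Vehicle and Isotype + Vehicle. Of the neighbours in this order only the last pair passed the limits. That call is not independent of the choice of Lcn2, and it was lost without single livers, as given above. In the presence of αACBP the CORT response was smaller by 2.91 on the log2 scale (± 0.88 SE), a difference that contains the comparison used for the choice and is given without a test.

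**Figure D1:**
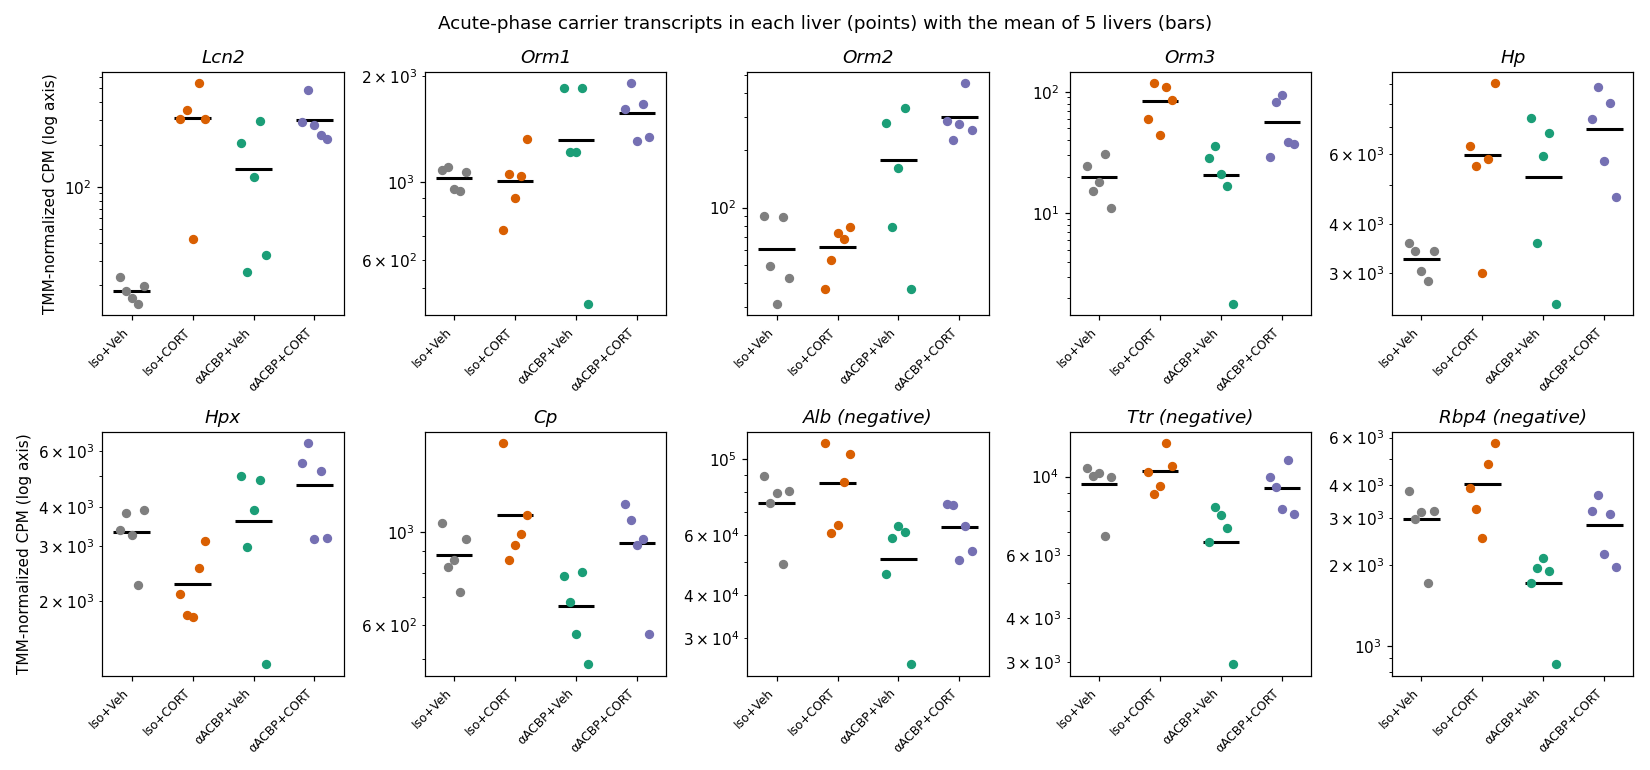
TMM-normalized CPM on log axes of the 10 genes in each liver, 1 panel per gene, with the 4 groups on the horizontal axis, points for livers and bars for means of 5. Lcn2 lies between 14.7 and 22.8 CPM in Isotype + Vehicle and above that range in all other livers, while Orm2 is high in αACBP + CORT alone as a whole group.

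The orosomucoids, also called α1-acid glycoproteins, bind basic and neutral drugs and steroids in plasma. Their 3 genes (Orm1, ENSMUSG00000039196.2, Orm2, ENSMUSG00000061540.3, and Orm3, ENSMUSG00000028359.4) lie together on chromosome 4 in the order Orm1, the pseudogene Gm11212, Orm3 and Orm2, all on the same strand. The longest open reading frames of Orm2 and Orm3 were identical in 87.1% of aligned positions, those of Orm1 and Orm2 in 78.6% and those of Orm1 and Orm3 in 74.6%. Despite this likeness, no stretch of 150 bases of any of the 10 genes recurred in the transcripts of another gene. Exons of Gm52743 on the opposite strand cover 14.5% of the exon bases of Orm1, where the counting may have added pairs of both genes. The same holds for 15.6% of the exon bases of Rbp4 (Ffar4), 3.67% of those of Ttr (Gm16090) and 0.964% of those of Cp (Hps3).

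The promoters of Orm2 (GRCm38.p6, chr4:63362199-63362498, plus strand) and Orm3 (chr4:63355908-63356207, plus strand) are shown because the groups with the higher values differed between these neighbouring genes. They were identical in 86.2% of 305 aligned positions. The capitals mark the C/EBP-type matches TTGCGCAA at position -120 of Orm2 and TTGCACAA at position -121 of Orm3, and ACATCCTGT at position -38 of Orm3, a match to the glucocorticoid-receptor-type motif.
Orm2: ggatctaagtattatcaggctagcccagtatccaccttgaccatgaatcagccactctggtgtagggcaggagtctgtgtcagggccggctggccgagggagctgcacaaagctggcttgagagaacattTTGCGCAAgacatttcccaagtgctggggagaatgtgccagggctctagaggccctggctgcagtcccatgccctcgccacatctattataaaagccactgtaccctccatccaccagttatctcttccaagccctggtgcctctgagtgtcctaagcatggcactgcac
Orm3: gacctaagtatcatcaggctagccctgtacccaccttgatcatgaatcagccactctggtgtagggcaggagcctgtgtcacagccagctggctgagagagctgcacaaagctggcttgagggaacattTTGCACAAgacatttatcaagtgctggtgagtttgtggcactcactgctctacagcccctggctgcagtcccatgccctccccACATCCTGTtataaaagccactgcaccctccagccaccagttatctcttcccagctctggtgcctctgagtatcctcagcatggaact

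None of the other motifs named above was found in either window. Promoters of 7 of the 10 genes were in the table, and each of the 7 had a match to the C/EBP-type motif in at least 1 window, Cp and Rbp4 having 2 windows each in the table.

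Orm2 was at 89.8, 49.1, 31.01, 89.1 and 42.9 CPM in Isotype + Vehicle and at 37.5, 52.9, 73.1, 68.3 and 79.1 CPM in Isotype + CORT. The groups covered the same range, with a log2FC of 0.04 (± 0.46 SE). In αACBP + CORT it was at 284, 228, 275, 453 and 255 CPM, and the lowest of these livers stood above every liver of both isotype groups. Against Isotype + CORT, Orm2 rose by a log2FC of 2.27 (± 0.48 SE, adjusted p = 0.0279 from edgeR), or 4.81-fold. The call was lost without replicate 1, 2, 4 or 5 of Isotype + CORT or replicate 1, 3, 4 or 5 of αACBP + CORT, with log2FC values of 2.07 to 2.37 and an adjusted p between 0.00568 and 0.0798 when each liver was left out in turn.

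In αACBP + Vehicle the Orm2 level was uneven, with 278, 161 and 333 CPM in replicates 1, 3 and 4 and 79.5 and 37.1 CPM in replicates 2 and 5. The last pair fell within the Isotype + Vehicle range, and the first 3 were above it. The log2FC of 1.56 ± 0.47 (SE) missed the limit on p (adjusted p = 0.0587 from edgeR). Without replicate 5 of αACBP + Vehicle and replicate 4 of Isotype + Vehicle it was 2.00 with an adjusted p of 0.0191. Against Isotype + Vehicle, the αACBP + CORT livers had a log2FC of 2.31 (± 0.48 SE, adjusted p = 0.0782 from edgeR) although the groups did not overlap, and without the same pair of livers it was 2.48 with an adjusted p of 0.0410.

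Orm3 differed from Orm2 in its pattern. It was at 24.6, 15.2, 17.97, 30.9 and 11.03 CPM in Isotype + Vehicle and at 59.3, 118, 43.9, 109 and 85.9 CPM in Isotype + CORT. All livers given CORT were above all given vehicle, with means of 19.96 ± 7.88 and 83.3 ± 31.7 CPM (SD, n = 5 each) and a log2FC of 2.06 (± 0.56 SE).

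Under αACBP, Orm3 was at 28.6, 35.7, 20.9, 16.8 and 1.79 CPM with vehicle and at 28.95, 82.9, 93.2, 38.8 and 36.8 CPM with CORT. The groups overlapped, since 1 CORT-treated liver lay below the highest vehicle liver, and replicate 5 of αACBP + Vehicle was far below all others. The log2FC with CORT was 1.43 (± 0.55 SE, adjusted p = 0.271 from edgeR), and 1.13 without replicate 5. Between αACBP + Vehicle and Isotype + Vehicle it was 0.06 with a 95% interval of -1.08 to 1.20.

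Within single livers, the ratio of Orm3 to Orm2 counts separated Isotype + CORT from the other 3 groups. It lay between 0.600 and 2.23 in Isotype + CORT and between 0.257 and 0.579 in Isotype + Vehicle, 0.0482 and 0.449 in αACBP + Vehicle and 0.0857 and 0.364 in αACBP + CORT. Every Isotype + CORT liver was thus above every other liver. The ratio was chosen after the values had been seen, does not correct for transcript length, and was not tested.

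Orm1, by far the most abundant of the 3 genes per kilobase, varied less. It was at 1029 ± 75.6 CPM in Isotype + Vehicle, 1008 ± 219 CPM in Isotype + CORT, 1315 ± 577 CPM in αACBP + Vehicle and 1566 ± 250 CPM in αACBP + CORT (SD, n = 5 each). The αACBP + CORT livers, at 1610, 1913, 1306, 1662 and 1340 CPM, all lay above the highest Isotype + Vehicle liver at 1103 CPM, whereas 1 Isotype + CORT liver, at 1321 CPM, reached into their range. The log2FC with the antibody under CORT was 0.64 (± 0.24 SE, adjusted p = 0.244 from edgeR) and thus did not pass either limit.

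Hp and Hpx encode haptoglobin and haemopexin, which carry free haemoglobin and free haem to the cells that clear them. Both are positive acute-phase genes, but they parted in Isotype + CORT. Hp was at 3583, 3406, 3034, 2870 and 3420 CPM in Isotype + Vehicle and at 6270, 5591, 3007, 5812 and 9041 CPM in Isotype + CORT. Apart from replicate 3, which lay among the vehicle livers, all CORT-treated livers were higher, and the log2FC was 0.87 (± 0.26 SE).

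Hpx was at 3371, 3815, 3251, 2248 and 3910 CPM in Isotype + Vehicle and at 2119, 1806, 1783, 2559 and 3108 CPM in Isotype + CORT. Its values were lower with CORT, with a log2FC of -0.54 (± 0.28 SE), and the groups overlapped. In αACBP + CORT it was at 5520, 6365, 3155, 5212 and 3174 CPM, all above the highest Isotype + CORT liver, although replicates 3 and 5 only by a little. The log2FC with the antibody under CORT was 1.04 (± 0.28 SE, adjusted p = 0.0628 from edgeR). It passed the adjustment without replicate 5 of αACBP + Vehicle, a liver that enters this comparison only through the shared estimate of the spread (1.06, adjusted p = 0.00889), and over all livers left out in turn the adjusted p lay between 0.00889 and 0.148.

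Hp in αACBP + CORT was at 7355, 8826, 5741, 8066 and 4657 CPM, above every Isotype + Vehicle liver. The log2FC between these groups was 1.09 (± 0.26 SE, adjusted p = 0.102 from edgeR), and it was 0.22 (± 0.26 SE, adjusted p = 0.841) against Isotype + CORT. In αACBP + Vehicle, Hp was at 7381, 3575, 5936, 6765 and 2508 CPM, with replicates 2 and 5 in or below the Isotype + Vehicle range (log2FC 0.68 ± 0.26 SE, adjusted p = 0.123).

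As a ratio of counts within a liver, Hp to Hpx lay between 0.875 and 1.28 in Isotype + Vehicle and between 1.69 and 3.10 in Isotype + CORT, without overlap. It was at 1.20 to 1.99 in αACBP + Vehicle and at 1.33 to 1.82 in αACBP + CORT. The medians were 0.933, 2.91, 1.47 and 1.47 in the order of the 4 groups. This ratio, too, was chosen with the values known, and it was not tested.

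**Figure D2:**
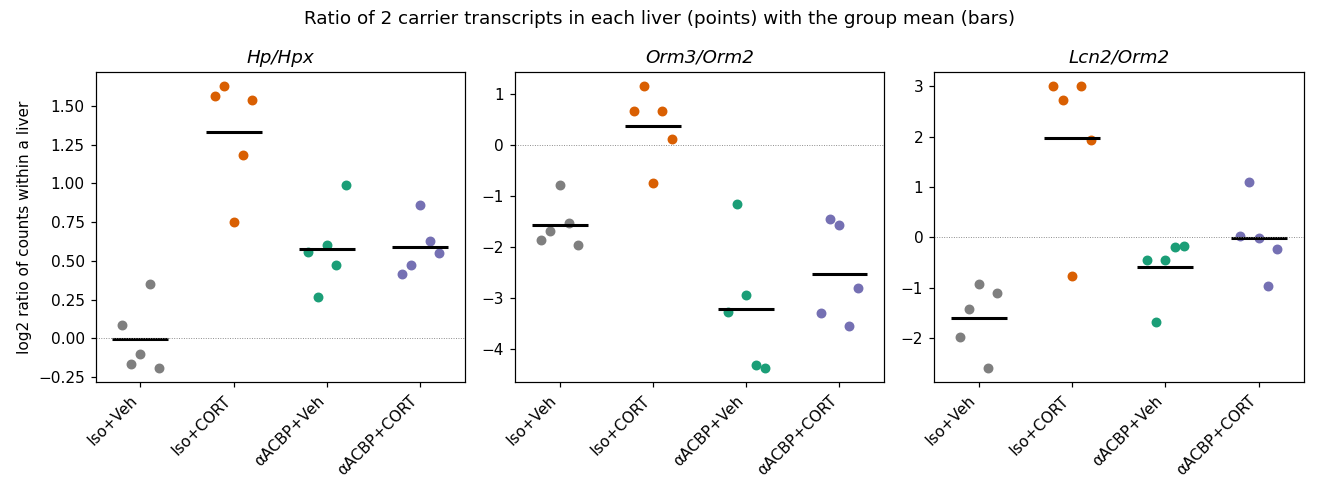
Log2 ratio of the counts of 2 carrier genes within each liver on the vertical axis, by group on the horizontal axis, with points for livers and bars for means of 5. Isotype + CORT livers have the highest Orm3 to Orm2 ratios, 0.600 to 2.23 on the linear scale, and their Hp to Hpx ratios of 1.69 to 3.10 lie above those of Isotype + Vehicle.

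Cp encodes ceruloplasmin, a copper-carrying ferroxidase, and it passed the limits in none of the comparisons by edgeR. It was at 884 ± 128 CPM in Isotype + Vehicle, 1102 ± 308 CPM in Isotype + CORT, 666 ± 137 CPM in αACBP + Vehicle and 940 ± 225 CPM in αACBP + CORT (SD, n = 5 each). The log2FC with αACBP under vehicle was -0.41 (± 0.20 SE, adjusted p = 0.248 from edgeR), the only negative value among the 7 positive members in that comparison. With CORT under αACBP it was 0.50 (± 0.20 SE, adjusted p = 0.281 from edgeR).

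The negative members carry hormones, lipids and vitamins. Alb encodes albumin, Ttr transthyretin, a carrier of thyroxine and of the retinol-binding protein, and Rbp4 that retinol-binding protein. With αACBP under vehicle all 3 had negative log2FC values, -0.80 for Rbp4 (± 0.25 SE, adjusted p = 0.0582 from edgeR), -0.55 for Alb (± 0.24 SE, adjusted p = 0.180) and -0.54 for Ttr (± 0.21 SE, adjusted p = 0.133). None of them passed both limits. Of the 8 hepatocyte markers, 7 were below 0 in this comparison as well, with a median of -0.39, and none passed the limits. The 29 other positive acute-phase genes divided into 14 above 0 and 15 below. Whether the lower values were particular to the negative class was not tested.

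Rbp4 was at 3794, 2987, 3165, 1714 and 3191 CPM in Isotype + Vehicle and at 1715, 1948, 2132, 1910 and 851 CPM in αACBP + Vehicle. The groups overlapped only because replicate 4 of Isotype + Vehicle fell within the range of the antibody-treated livers. Without that liver and replicate 5 of αACBP + Vehicle, the log2FC was -0.78 with an adjusted p of 0.0399 but below the limit on its size, that of Alb was -0.50 (adjusted p = 0.122) and that of Ttr was -0.46 (adjusted p = 0.0775).

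Alb was at 89234, 74420, 79236, 49295 and 80520 CPM in Isotype + Vehicle and at 46173, 58592, 63626, 60953 and 25084 CPM in αACBP + Vehicle. Replicate 4 of Isotype + Vehicle lay among the antibody-treated livers, as it did for Rbp4. Ttr was at 9525 ± 1547, 10354 ± 1342, 6534 ± 2098 and 9278 ± 1346 CPM in the order of the 4 groups (SD, n = 5 each). In the CORT-treated groups Alb was at 84897 ± 22546 CPM under isotype and 63088 ± 10733 CPM under αACBP, and Rbp4 at 4027 ± 1254 and 2825 ± 713 CPM. The antibody comparisons of these genes under CORT had log2FC values of -0.43 for Alb, -0.51 for Rbp4 and -0.16 for Ttr (SE 0.24, 0.25 and 0.21), and none passed in edgeR (adjusted p between 0.399 and 0.870).

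With CORT under αACBP, the log2FC values of the negative members were positive, 0.72 for Rbp4 (± 0.25 SE, adjusted p = 0.200 from edgeR), 0.51 for Ttr (± 0.21 SE, adjusted p = 0.303) and 0.31 for Alb (± 0.24 SE, adjusted p = 0.646). Under isotype they were 0.44, 0.12 and 0.19 (SE 0.25, 0.21 and 0.24). Both CORT comparisons had the same sign for the 3 negative members. Without replicate 5 of αACBP + Vehicle, the values under αACBP were 0.55 for Rbp4, 0.32 for Ttr and 0.14 for Alb. Of the 8 hepatocyte markers, 7 were above 0 with CORT under αACBP as well, with a median of 0.23. Whether the higher values were particular to the negative members was not tested.

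Summed up by class, the members did not move as a block. In the comparison of CORT with vehicle under isotype, 1 of the 10 genes (Lcn2) passed both limits, set at 0.05 for the adjusted p and at 1 for the size of the log2FC, where 1.94% of all genes tested did. The groups did not overlap for 2 genes (Lcn2 and Orm3), against 5.04% of all genes. Lcn2 was chosen from this comparison, so that its call was given beforehand. The positive members had a median log2FC of 0.32 and the negative members of 0.19, next to 0.00 over all genes.

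Under αACBP, none of the 10 genes was changed by CORT in edgeR's test, against 0.212% of all genes, and none had groups without overlap, against 2.74%. At unadjusted p with the same limits 1 gene passed (Orm3), against 2.46% of all genes, and none did with DESeq2. All 10 log2FC values were above 0, with medians of 0.50 for the positive and 0.51 for the negative members and 0.01 over all genes. Without replicate 5 of αACBP + Vehicle, Orm1 was at 0.03, Alb at 0.14 and Hpx at 0.16. Of the 8 hepatocyte markers 7 were above 0 as well, and of the 29 other positive acute-phase genes 23. Whether the members differed from such genes was not tested.

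With αACBP under CORT, 1 of the 10 genes was changed (Orm2), against 0.597% of all genes, and 2 had groups without overlap (Orm2 and Hpx), against 3.22%. The 3 negative members were all below 0 (median -0.43), whereas 4 of the 7 positive members were above it (median 0.22), with a median of 0.01 over all genes.

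With αACBP under vehicle, Lcn2 was changed, against 1.3% of all genes, and it was also the 1 member whose groups did not overlap, against 7.13%. Of the positive members 6 of 7 were above 0 (median 0.35), and the negative members were all below (median -0.55). The median was -0.02 over all genes and -0.39 over the 8 hepatocyte markers. Between αACBP + CORT and Isotype + Vehicle, Lcn2 passed both limits, against 0.0684% of all genes, and 4 genes had groups without overlap (Lcn2, Orm1, Orm2 and Hp), against 3.31%. For Lcn2, this comparison and that of αACBP under vehicle use the Isotype + Vehicle livers that also served in its choice. Its calls there are not independent of that choice. The interaction of CORT and antibody, for which 0.143% of all genes passed, contains the comparison behind the choice, and no test of a member is given for it. At unadjusted p with the same limits, 2 of the 10 genes passed for αACBP under CORT (Orm2 and Hpx), against 3.24% of all genes, 2 for αACBP under vehicle (Lcn2 and Orm2), against 3.34%, and 4 for both treatments (Lcn2, Orm2, Orm3 and Hp), against 1.39%. For CORT under isotype and the interaction, which contain the comparison behind the choice, 5.54% and 4.92% of all genes did. All these comparisons draw on the same 4 groups and share livers, so that their values are not independent of each other.

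**Figure D3:**
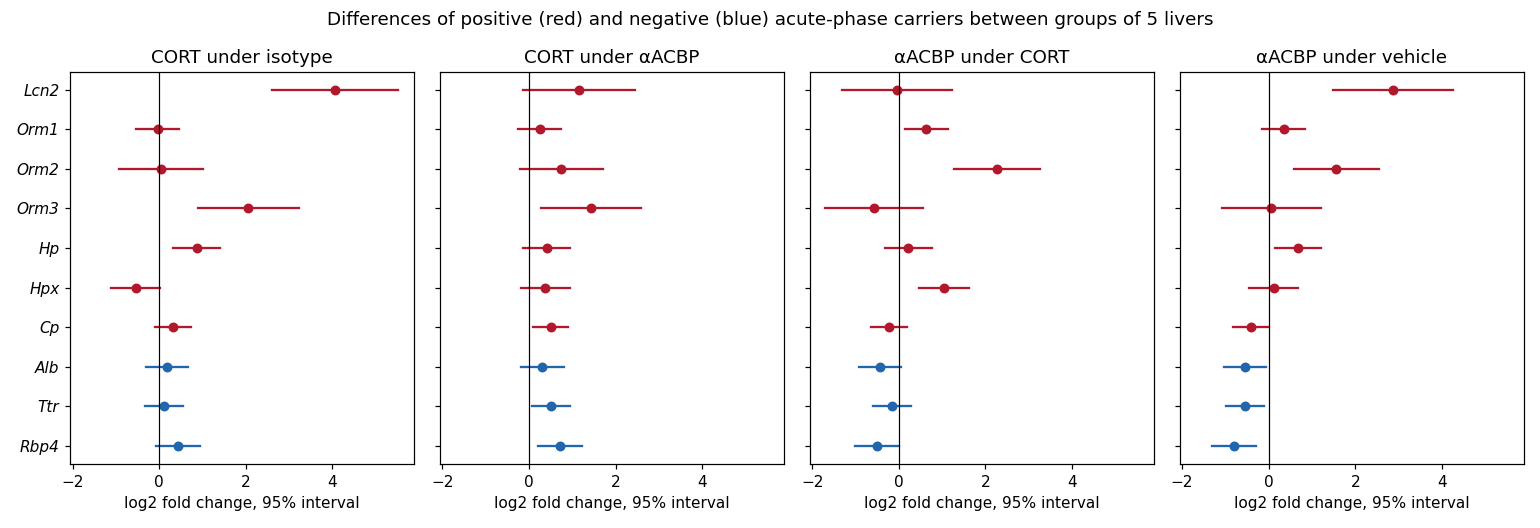
Log2FC values (points) with 95% intervals (lines) of the 10 genes in the 4 comparisons of groups that differ in 1 treatment, positive members in red and negative members in blue. Lcn2 has the value farthest from 0, 4.07 for CORT under isotype, all 10 points lie above 0 for CORT under αACBP, and those of the 3 negative members lie below 0 in both antibody comparisons.

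The livers of αACBP + Vehicle split along several genes at once. Replicates 1, 3 and 4 held the 3 highest values of the group for Lcn2, Orm2, Hp and Hpx, 4 of the 7 positive members. They did so for Orm1 as well, but replicates 3 and 2 were nearly equal there, at 1221 and 1215 CPM, and Orm3, Cp and the negative members did not follow that division. Saa1, which encodes the acute-phase apolipoprotein serum amyloid A1, was at 1007, 662 and 1464 CPM in these livers and at 40.3 and 115 CPM in replicates 2 and 5. The αACBP + CORT livers held 467 to 1123 CPM of Saa1, while the isotype groups held 23.6 to 84.4 CPM. The division was seen in the data, so that it carries no test. For Hpx it was less sharp, since replicate 2, at 2972 CPM, lay nearer to replicate 3 at 3911 than to replicate 5 at 1262 CPM.

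**Figure D4:**
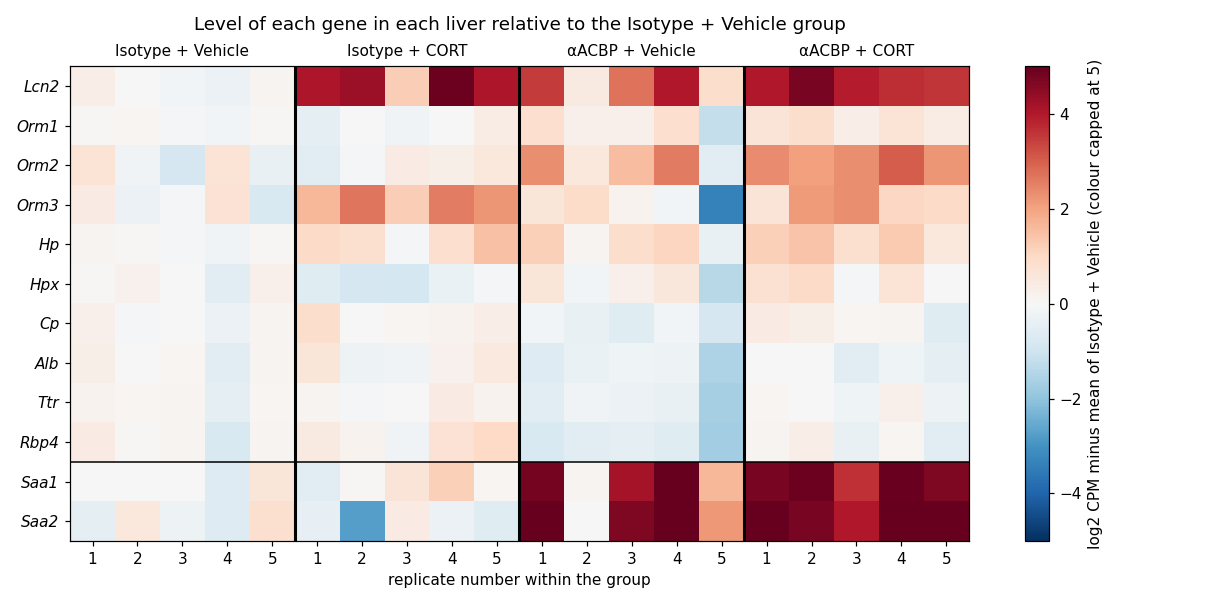
Colour gives the log2 CPM of each gene (rows) in each liver (columns, by group and replicate) minus the mean of Isotype + Vehicle, capped at 5, with Saa1 and Saa2 below the 10 genes for comparison. Replicates 1, 3 and 4 of αACBP + Vehicle and all αACBP + CORT livers share high Lcn2, Orm2, Saa1 and Saa2, and Isotype + CORT livers have higher Lcn2 and Orm3 than Isotype + Vehicle at 25.2 to 84.4 CPM of Saa1.

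Among 29 other positive acute-phase genes, all of which were tested, few passed the limits in any comparison. With αACBP under CORT 3 rose and none fell, namely Saa2 by a log2FC of 5.36 (± 0.91 SE, adjusted p = 0.00871 from edgeR), Saa1 by 4.24 (± 0.74 SE, adjusted p = 0.00949) and Saa3 by 2.51 (± 0.50 SE, adjusted p = 0.0165). The median over the 29 genes was 0.16. With αACBP under vehicle 5 rose and none fell, those with the smallest adjusted p being the metallothionein gene Mt2 (2.12 ± 0.39 SE, adjusted p = 0.00721), Saa1 (4.10 ± 0.73 SE, adjusted p = 0.00750) and Saa2 (4.73 ± 0.89 SE, adjusted p = 0.00891). The median of the list was -0.14.

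With CORT under isotype 1 of the 29 genes passed the limits, Vnn1, which encodes the pantetheinase vanin-1, with a log2FC of 2.08 (± 0.38 SE). Whether its rise belongs to an acute-phase response was not tested. Under αACBP no gene of the list passed in edgeR with CORT, and with both treatments Saa1 was higher by 4.60 (± 0.75 SE, adjusted p = 0.0320). Of 14 other negative acute-phase genes and plasma carriers, none passed the limits in any of the comparisons by edgeR, and their medians lay between -0.16 and 0.23.

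**Figure D5:**
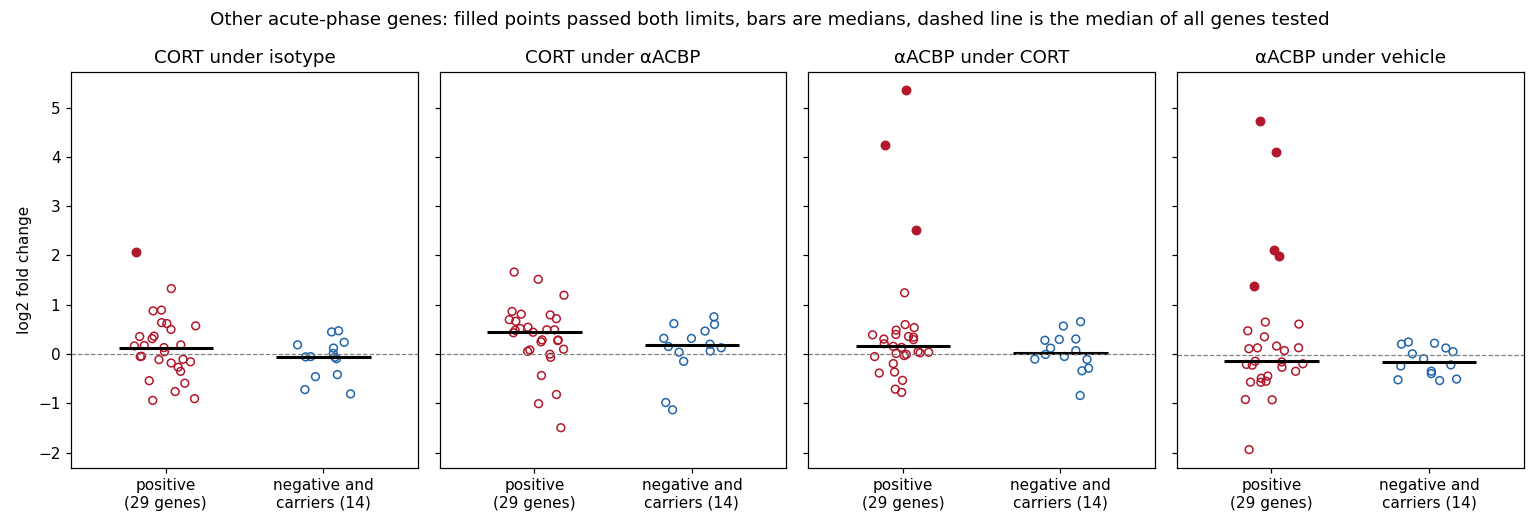
Log2FC values of the 29 other positive acute-phase genes (red) and of the 14 other negative genes and carriers (blue) in 4 comparisons, filled where both limits were passed, with bars for medians and a dashed line for the median of all genes. The filled points number 1 for CORT under isotype, 0 for CORT under αACBP, 3 for αACBP under CORT and 5 for αACBP under vehicle.

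Of the cytokines, receptors and transcription factors that act on acute-phase genes, 18 of 20 were tested, and 1 passed. Cebpb, which encodes the factor C/EBPβ, rose with αACBP under vehicle by a log2FC of 1.04 (± 0.28 SE, adjusted p = 0.0324 from edgeR). It was at 122 ± 47.3 CPM in Isotype + Vehicle, 117 ± 21.1 CPM in Isotype + CORT, 251 ± 125 CPM in αACBP + Vehicle and 128 ± 16.9 CPM in αACBP + CORT (SD, n = 5 each).

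Of 15 receptors and partners of the carrier proteins, 13 were tested. Lrat, which encodes the enzyme that esterifies retinol for storage, fell by 1.01 on the log2 scale with αACBP under vehicle (± 0.28 SE, adjusted p = 0.0332 from edgeR). No gene of this list passed with CORT under αACBP or with αACBP under CORT.

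Of 10 glucocorticoid target genes, Fkbp5 alone passed the limits with CORT under isotype, with a log2FC of 1.70 (± 0.26 SE), and the list's median was -0.05. With CORT under αACBP the median of these genes was -0.21 and none passed in edgeR. With αACBP under vehicle all 10 were above 0 with a median of 0.57, and none passed.

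Lcn2 is also made by neutrophils, whose granules hold its protein. Of 11 neutrophil markers, 3 passed the filter on low counts, and the sum of the 11 was at 12.2 to 24.8 CPM in Isotype + Vehicle, 6.91 to 13.3 CPM in Isotype + CORT, 9.58 to 21.4 CPM in αACBP + Vehicle and 12.4 to 20.1 CPM in αACBP + CORT. Most of this sum was Csf3r, with means of 12.8, 6.06, 13.8 and 11.9 CPM in the order of the 4 groups. The sum itself had means of 19.6, 9.35, 18.2 and 15.6 CPM. The markers at 0 in every liver of a group were Ly6g in Isotype + Vehicle, Mpo, Ltf, Camp and Ly6g in Isotype + CORT, Elane and Ly6g in αACBP + Vehicle, and Mpo and Camp in αACBP + CORT. With CORT under isotype, Csf3r was lower by a log2FC of -1.08 (± 0.27 SE), while the means of Retnlg (0.0719 and 0.241 CPM) and Elane (0.0857 and 0.130 CPM) were higher and near the floor of 3 counts. The part of neutrophils in the Lcn2 values was not tested.

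Markers of macrophages and Kupffer cells, the cells that take up haptoglobin-haemoglobin complexes, were lower with CORT under isotype. Their sum over 11 genes was at 513 to 1090 CPM in Isotype + Vehicle, 167 to 480 CPM in Isotype + CORT, 612 to 1035 CPM in αACBP + Vehicle and 617 to 893 CPM in αACBP + CORT. All 11 were below 0 with CORT under isotype and 7 of them passed the limits, led by C1qc (-1.83 ± 0.39 SE), Timd4 (-1.61 ± 0.44 SE) and C1qa (-1.40 ± 0.25 SE). With CORT under αACBP 7 were above 0 and 4 below, with a median of 0.16. All 11 were above 0 with αACBP under CORT, and 3 rose, Clec4f by 1.42 (± 0.24 SE, adjusted p = 0.00275 from edgeR), Csf1r by 1.07 (± 0.20 SE, adjusted p = 0.00720) and C1qa by 1.24 (± 0.25 SE, adjusted p = 0.0116). In pieces of whole liver, fewer cells of a type and less RNA per cell cannot be told apart. The part of these cells in the values of the carrier genes was not tested.

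Markers of bile duct cells summed to 63.1 to 97.2 CPM in Isotype + Vehicle and to 28.0 to 72.2 CPM in αACBP + Vehicle. Those of red blood cells summed to 296 to 487 CPM and 281 to 526 CPM in the same groups. No gene of either list passed the limits in any comparison by edgeR. Of 7 adipocyte markers 3 were tested, and Cfd passed, lower with αACBP under vehicle, where it was at 0 in every liver.

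The genes most like Lcn2 over the 20 livers were found by the root mean square difference of log2(CPM + 1), each gene centred on its own mean, among 13872 genes with a mean of 1 CPM or more. They were Lhx6 with a difference of 1.31, Hp with 1.34, Extl1 with 1.38, Lrg1 with 1.40 and Cyp2d9 with 1.41, where the spread of Lcn2 around its own mean was 1.83. Hp is the only other member among them, and Lrg1, an acute-phase glycoprotein gene, was at 305 ± 61.3, 559 ± 229, 465 ± 226 and 738 ± 300 CPM in the order of the 4 groups (SD, n = 5 each). Extl1 was at 5.71 ± 1.498, 37.3 ± 12.5, 11.1 ± 4.40 and 21.8 ± 11.9 CPM, and Lhx6 and Cyp2d9 likewise had their highest mean in Isotype + CORT.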

How the data were processed

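RNA from whole pieces of mouse liver was sequenced in read pairs. Alignment by HISAT2 was followed by HTSeq-count (union mode, non-unique features kept), and the raw counts per gene of each of the 20 livers were deposited by the authors, neither normalized nor pooled. The genome build is GRCm39 in the methods of the study and mm10 in the submitters' processing notes. The annotation release and the strand setting are not given in the sources used here, and positions are therefore printed only for promoters, which were taken from a RefSeq table of GRCm38.p6. A pair that lies over 2 genes can add to both. Closing lines for pairs on no gene were left out of library sizes and tests. Of all lines of the table, those for no feature held between 42.3% and 45.2% of pairs per liver.

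All 20 columns were matched to a liver by name. Counts were analysed in R 4.3.3 with the quasi-likelihood test of edgeR 4.0.16 (robust estimation, TMM normalization and edgeR's filter on low counts) in 1 model of the 4 groups, and p-values were adjusted over the 16071 genes tested by the Benjamini-Hochberg method. The limits for a call were an adjusted p of 0.05 and a log2 fold change of 1 in either direction. The study states the same sizes without naming an adjustment of p. In the liver with the fewest counts, 3 counts correspond to 0.201 CPM. Pairs were counted without molecular identifiers, so that such a floor does not take account of copies made in amplification. The common biological coefficient of variation was 0.481.

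Alternatives were DESeq2 1.42.0 and its size factors, other filters and library sizes, unadjusted p, a model of the compared groups only, a replicate block and each liver left out. Leaving out the pair of livers with the most unaligned pairs was added after seeing the data. The members and the gene lists were chosen with earlier results of these data known. The genes named from a list were at most 3 higher and 3 lower among those past the limits, by adjusted p (by size of the change for CORT under isotype), and the 5 genes most like Lcn2 were named by a distance over all livers. Saa1 in the livers of αACBP + Vehicle and the ratios of genes were picked after their values had been seen. Exon lengths, overlaps and shared stretches come from GENCODE M39, in which 91.4% of the identifiers were found with versions set aside. Sequence comparisons used Biopython 1.88. The values of 1 gene on the list of receptors and partners are not reported here.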

Additional observations from a re-analysis of the deposited data

Results flagged for a closer look

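In 3 of the 40 sets of 5 livers formed by the 10 genes and 4 groups, 1 liver lay far from the others by Dixon's criterion, where chance flags about 1 in 20 sets. Lcn2 in replicate 2 of αACBP + CORT was at 489 CPM, above the next liver at 290 and the lowest at 217 CPM. Orm2 in replicate 4 of αACBP + CORT was at 453 CPM, above the next at 284 and the lowest at 228 CPM. Ttr in replicate 4 of Isotype + Vehicle was at 6791 CPM, below the next liver at 9991 and the highest at 10585 CPM. The cause was not tested in any of these.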

How the results depend on the processing

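No log2 fold change of a called gene reversed under any alternative, and of 1790 values 1731 stayed on their side of the limits, 34 came to pass and 25 no longer passed. Of those that passed neither before nor after, 29 changed sign, all from values of at most 0.12 in size. Normalization by DESeq2's size factors, no filter, and library sizes without the members or without the 20 most abundant genes changed no call of a member. Of the member counts that follow, only those by unadjusted p and by DESeq2 have a count or share over all genes given. The others are not read as results about the members. With at least 10 counts in every liver, 2 members passed for CORT under isotype (Lcn2 and Orm3), 2 for αACBP under CORT (Orm2 and Hpx) and 2 for αACBP under vehicle (Lcn2 and Orm2). Unadjusted p gave 2, 2 and 2 in these comparisons, 1 for CORT under αACBP (Orm3) and 4 for both treatments (Lcn2, Orm2, Orm3 and Hp). The shares of all genes, in the order named, were 5.54%, 3.24%, 3.34%, 2.46% and 1.39%. No count of members is given for the interaction, which contains the comparison behind the choice. With only the groups compared in the model, 2 passed for CORT under isotype and 3 for both treatments (Lcn2, Orm2 and Hp). DESeq2 gave 2, 2 and 2 in the first 3 comparisons and 3 for both treatments. Without the 2 livers with the most unaligned pairs, 2 members passed in each of those 3 comparisons. With both treatments Lcn2 then no longer passed (adjusted p = 0.0560 from edgeR, 0.0124 to 0.144 with single livers left out) and Orm2 did.

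With each liver left out in turn, between 1 and 3 members passed for CORT under isotype and 0 to 2 for αACBP under CORT. For αACBP under vehicle it was 0 to 2, for both treatments 0 to 3 and for CORT under αACBP 0. The count of 3 for CORT under isotype (Lcn2, Orm3 and Hp) arose without replicate 3 of Isotype + CORT. Without replicate 5 of αACBP + Vehicle, 2, 2, 2 and 3 members passed for the first 4 of these. The numbers of all genes called, in which the shares given beside the members are expressed, moved with the tool as well, from 312 to 526 for CORT under isotype, from 34 to 118 for CORT under αACBP, from 96 to 219 for αACBP under CORT, from 209 to 297 for αACBP under vehicle, from 11 to 62 for both treatments and from 23 to 188 for the interaction with DESeq2. No share of all genes is given for the stricter filter on counts, the compared groups alone, the replicate block or livers left out. Whether members gained or lost calls there beyond a shift over all genes was not tested.

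The labels give the groups the same replicate numbers, but same-numbered livers come from different mice, and their deviations from the group means correlated by -0.169 to 0.170 over 30 pairs, above 0.1 in 4. With the number as a replicate block, 0 members passed for αACBP under vehicle (Lcn2 at adjusted p = 0.0525 from edgeR), and with both treatments Orm2 passed in place of Lcn2. The cause of these changes was not tested. The lowest value of a member in any liver, 1.79 CPM for Orm3, lay above the 0.201 CPM that 3 counts correspond to, and the effect of depth on the precision was not tested.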
